A study of Mus musculus with 4 samples.

Results

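The nuclear genes for the subunits of the respiratory chain and of the ATP synthase were followed in the immune cells of mice treated with an inhibitor of the salt-inducible kinases. They were taken by symbol as the genes named Nduf with a subunit letter (complex I), Sdha to Sdhd (complex II), Uqcr (complex III), Cox4 to Cox8 (complex IV) and Atp5 (complex V), leaving out the Ndufaf assembly factors. This gave 86 of 32285 genes: 39 of complex I, 4 of complex II, 8 of complex III, 18 of complex IV and 17 of complex V. The 13 subunits encoded by the mitochondrial genome (mt- genes) were read beside them. Single-cell RNA sequencing (10x Genomics 3' chemistry) had been run on viable cells sorted for CD45 and MHC class I, from B6 mice that carried the BeCon tumour. The series title names ovarian cancer as the disease modelled. The mice received YKL-05-099, the inhibitor, or its vehicle, and every group carried the tumour. Each mouse and tissue had a hashtag antibody of its own, and the age of the mice is not given in the sources used here. Ascites came from 4 vehicle and 4 treated mice in 1 library, and spleen and blood came from 3 vehicle mice (numbers 1 to 3) and 3 treated mice (numbers 2 to 4) in the other.

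The respiratory chain passes electrons from NADH (complex I) and succinate (complex II) through ubiquinone to complex III, and by cytochrome c to complex IV, which reduces oxygen. Complexes I, III and IV pump protons, and the ATP synthase (complex V) lets them flow back through its membrane sector to drive its catalytic head. Complexes I, III, IV and V each combine subunits from nuclear genes with subunits made in the mitochondrion, while the subunits of complex II are nuclear. In immune cells oxidative phosphorylation is known to differ between resting, activated and proliferating states.

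The stretches of 250 bases before the RefSeq start of 4 of these genes (GRCm38.p6, minus strand) show the members on which the results below turn. Atp5k, Cox6a1 and Atp5g1 rose in treated type 1 conventional dendritic cells, and Cox7a2l fell. Capitals mark matches on either strand to the motifs of NRF1 and GABP, factors known for their sites in respiratory genes, and of CREB, whose coactivators are known substrates of the salt-inducible kinases. The window of Atp5k is chr5:108434400-108434649, that of Cox6a1 chr5:115348959-115349208, that of Atp5g1 chr11:96075632-96075881 and that of Cox7a2l chr17:83514334-83514583. In the GENCODE M21 annotation Atp5k spans chr5:108433244-108434448, Cox6a1 chr5:115345642-115348981 and Atp5g1 chr11:96068852-96075670, each on the minus strand. The end of each of their windows with the lower coordinate, which holds the last bases as printed, lies inside the span of its gene. Cox7a2l spans chr17:83501918-83517330, also on the minus strand, and its whole window lies inside that span.
Atp5k: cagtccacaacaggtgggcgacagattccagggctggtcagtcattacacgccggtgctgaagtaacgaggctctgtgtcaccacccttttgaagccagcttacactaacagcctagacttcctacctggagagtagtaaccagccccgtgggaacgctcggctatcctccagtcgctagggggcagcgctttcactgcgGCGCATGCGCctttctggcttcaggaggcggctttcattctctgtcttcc
Cox6a1: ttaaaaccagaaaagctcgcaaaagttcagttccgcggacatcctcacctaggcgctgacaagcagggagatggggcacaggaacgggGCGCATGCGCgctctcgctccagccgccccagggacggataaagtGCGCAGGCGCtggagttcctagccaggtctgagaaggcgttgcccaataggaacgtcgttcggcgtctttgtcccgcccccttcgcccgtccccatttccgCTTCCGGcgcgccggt
Atp5g1: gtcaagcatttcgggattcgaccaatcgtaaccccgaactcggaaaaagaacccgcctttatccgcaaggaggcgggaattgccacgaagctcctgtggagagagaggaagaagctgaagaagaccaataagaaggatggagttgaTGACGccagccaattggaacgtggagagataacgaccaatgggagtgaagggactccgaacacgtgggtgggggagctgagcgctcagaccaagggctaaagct
Cox7a2l: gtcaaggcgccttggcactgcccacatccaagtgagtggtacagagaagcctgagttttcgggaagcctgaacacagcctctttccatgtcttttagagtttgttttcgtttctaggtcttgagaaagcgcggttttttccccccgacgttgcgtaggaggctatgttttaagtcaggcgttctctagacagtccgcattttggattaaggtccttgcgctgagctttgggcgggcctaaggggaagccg
The open NRF1 motif was searched as GCGC, any 2 bases, and GCGC again, and the full motif has AT as these 2 bases. Atp5k holds 1 copy of the full motif. Cox6a1 holds 1 copy of the full motif and, downstream of it, 1 further match to the open form, and near its start CTTCCGG, the reverse complement of the GABP motif CCGGAAG. Atp5g1 holds TGACG, the short CREB motif, and Cox7a2l holds none of the motifs searched.

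A RefSeq window of 300 bases (250 before the start and 50 after it) was matched for 68 of the 86 members and for 27025 genes in all. The full NRF1 motif lay in 5 member windows, 7.35%, against 1.07% of all windows, and its open form, which includes it, lay in 27.9% against 7%. CCGGAAG was found in 25% of member windows and 9.93% of all. The full CREB motif TGACGTCA was found in 5.88% against 2.03%, and TGACG, which lies within it, in 36.8% against 23%. Of the 33 windows of members that rose in type 1 dendritic cells, 8 held the open NRF1 form, 11 held CCGGAAG and 11 held TGACG. Of the 33 windows of members that were tested there without a call or were not tested, 10, 6 and 14 held them. The windows of Ndufa6 and Cox7a2l, which fell there, held 1 match to the open NRF1 form and 0 to the others. A match describes letters in a window and shows no binding.

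The ascites library held 13688 barcodes with 134034611 UMIs in all (unique molecular identifiers, 1 per captured transcript), and the library of spleen and blood held 14792 with 92064806. After filters and hashtag assignment 6419 and 6741 cells remained, of which 5783 and 6321 met a gate on marker transcripts for exactly 1 cell class. Cuts lowered or raised by 20% changed the class of 353 and 324 ascites cells and of 197 and 158 cells of spleen and blood. The libraries shared 52 barcodes, 10 of them among assigned cells. Cells of 1 class were added up within each mouse that had 20 or more of them, which left 17 pairs of class and tissue to compare between arms. Levels below are CPM, the UMIs of a gene scaled to the same total for each mouse and class, and differences are log2 fold changes of treated over vehicle (± SE) from edgeR, adjusted over all genes tested in the class.

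Type 1 conventional dendritic cells (cDC1) of ascites, known for presenting antigen to CD8 T cells, had the highest count of changed members among the 17 comparisons. Of 78 members tested, 37 rose and 2 fell, while 8.81% of 7289 genes rose and 9.18% fell (edgeR adjusted p under 0.05, n = 4 each). The median log2 difference was 0.26 over the members and -0.00 over all genes, and 69 of the 78 differences were positive. Each rise was small, between 0.24 and 0.60 on the log2 scale. Treated and vehicle mice did not overlap for any of the 39 called members, which passing the threshold itself favours. The share of all genes without overlap is not given here. Among genes with a mean of at least 6 on edgeR's log2 CPM scale, 36 of 73 members rose and 2 fell, against 17.5% and 15.8% of all such genes. The 8 members without a test were Cox4i2, Cox6a2, Cox6b2, Cox7a1, Cox7b2, Cox8b, Cox8c and Ndufa4l2, isoforms known mostly from muscle, testis, lung or hypoxic tissue.

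**Figure D1:**
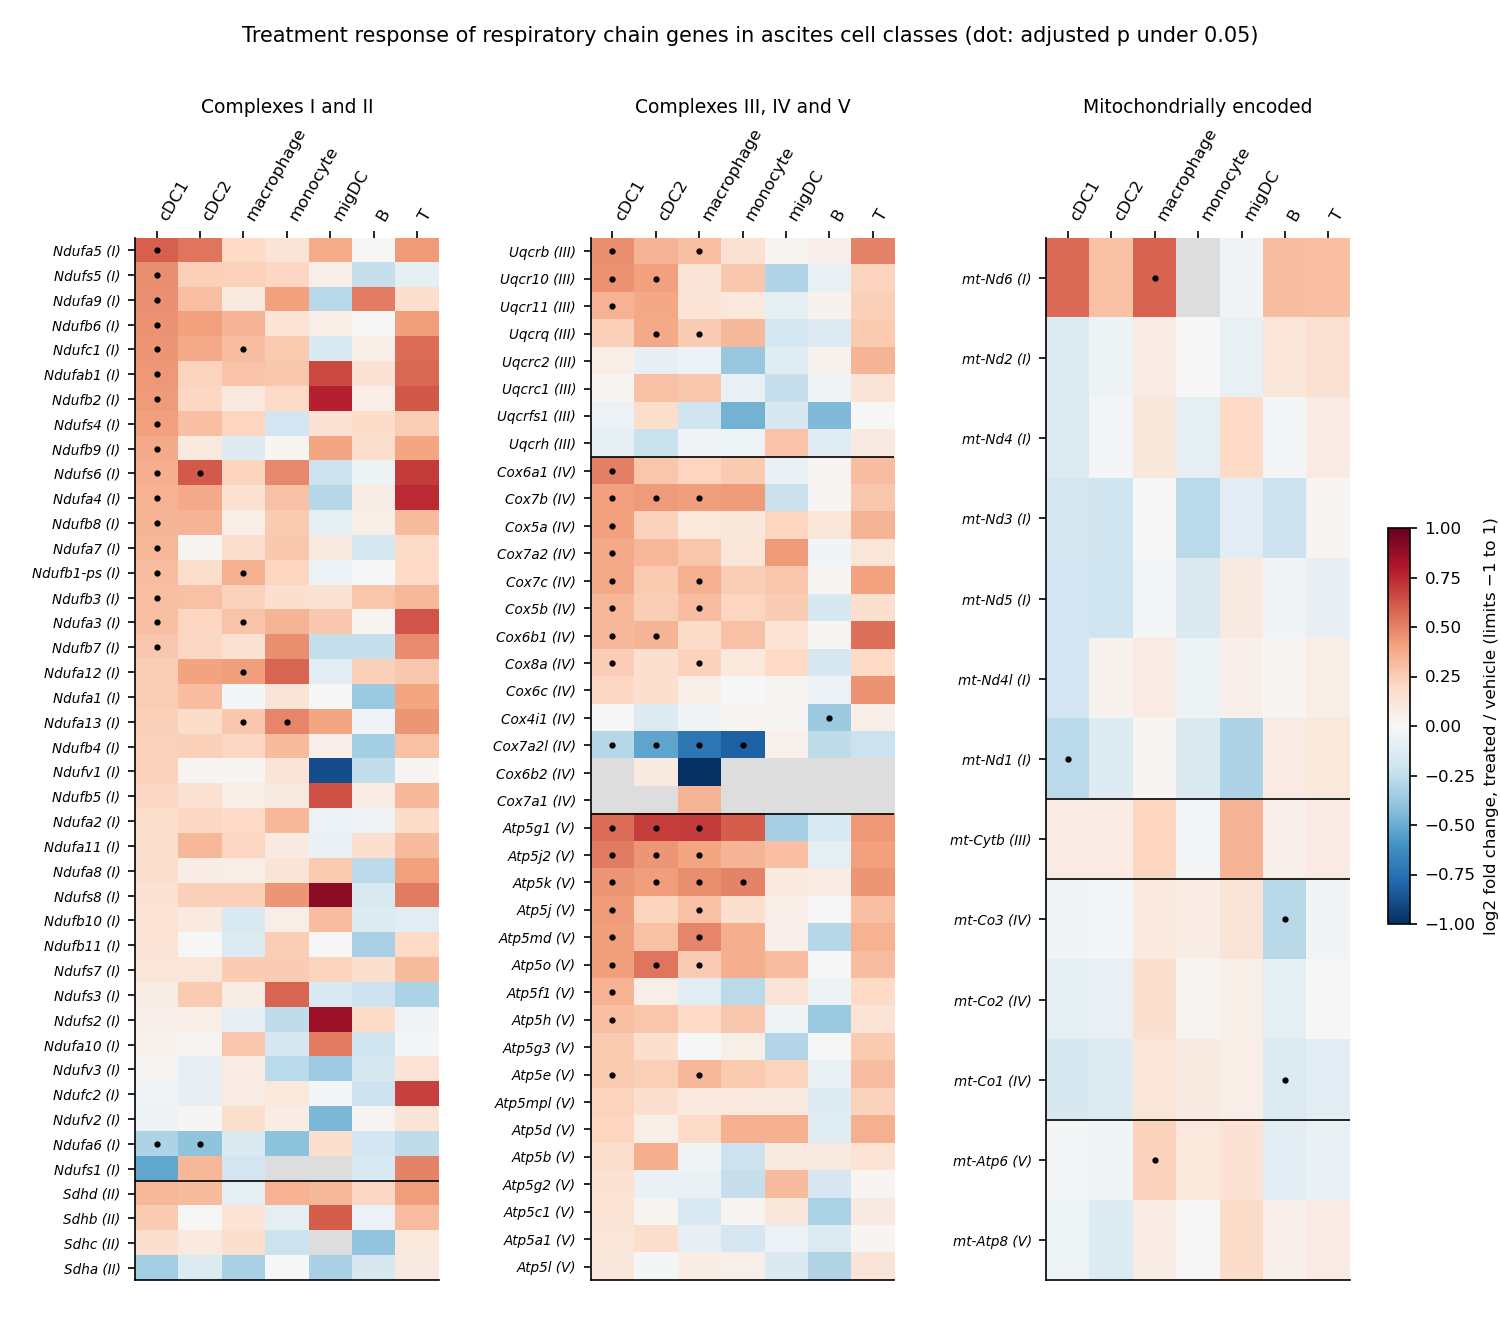
Log2 fold change of treated over vehicle for each respiratory chain gene (rows, with its complex) in 7 ascites cell classes (columns), colour limits -1 to 1, grey for genes not tested. A dot marks an edgeR adjusted p under 0.05: 37 rises stand in cDC1, 18 in macrophages and 9 in cDC2, and the Cox7a2l row is negative with a dot in 4 classes.

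Complex I has a core that carries out electron transfer and proton pumping, and many accessory subunits around it. None of the 7 nuclear core subunits tested in cDC1 passed the threshold (median log2 difference 0.08), among them Ndufs1 at -0.52. By contrast 17 of 31 accessory subunits rose and 1, Ndufa6, fell (median 0.30). Whether core and accessory subunits differed was not tested. Ndufa5, a subunit of the matrix arm, was at 54.6, 53.9, 56.3 and 58.8 CPM in the vehicle mice and at 95.8, 86.3, 72.4 and 91.7 in the treated mice. The arms were well apart, and the rise was 0.60 ± 0.13 (edgeR adjusted p = 0.000983). Ndufab1, the mitochondrial acyl carrier protein, was at 93.4, 93.3, 93.1 and 99.9 against 132.7, 152.3, 120.9 and 117.9, a rise of 0.43 ± 0.11 (edgeR adjusted p = 0.0055). Here treated mice 3 and 4 were the lowest of their arm and still above each vehicle mouse. Ndufc1 and Ndufs5, small accessory subunits, rose by 0.44 ± 0.11 and 0.47 ± 0.12. Ndufa4, named for complex I but known to sit in complex IV, was at 254.2, 264.6, 246.4 and 318.3 against 378.8, 350.1, 345.1 and 339.0. It rose by 0.35 ± 0.09 (edgeR adjusted p = 0.00464), and vehicle mouse 4 came nearest to the treated arm.

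The 4 genes of complex II, the enzyme shared by the respiratory chain and the citric acid cycle, had no member past the threshold in cDC1. An unadjusted p under 0.05 (edgeR) was found for 3 of them, and the share of all cDC1 genes with such a p is not given here. The flavoprotein gene Sdha went from 71.2 ± 4.08 to 57.2 ± 3.43 CPM (SD, n = 4 each), lower in each treated mouse but not past the threshold (-0.35 ± 0.13, edgeR adjusted p = 0.0586). Sdhb, the iron-sulfur subunit, was at 0.26 ± 0.13, and the membrane anchors Sdhc and Sdhd were at 0.16 ± 0.17 and 0.33 ± 0.13, with edgeR adjusted p from 0.0758 to 0.601. Complex II also had the lowest counts, 2690 UMIs in all 8 mice against 19436 or more for each other complex.

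Of 8 complex III genes in cDC1, 3 rose, each a small subunit. Uqcrb was at 218.2, 220.3, 257.1 and 308.3 CPM in vehicle mice and at 360.3, 351.5, 337.4 and 364.4 in treated mice, a rise of 0.46 ± 0.10 (edgeR adjusted p = 0.000471). The vehicle mice spread more widely than the treated ones, and the arms did not overlap. Uqcr10 and Uqcr11 rose by 0.45 ± 0.10 and 0.35 ± 0.09. Uqcrc1, a core protein, and Uqcrfs1, the Rieske iron-sulfur protein, were at 0.02 ± 0.13 and -0.06 ± 0.12 and overlapped between arms.

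In complex IV, cytochrome c oxidase, 8 of 11 tested genes rose in cDC1 and Cox7a2l fell. Cox6a1, the widely expressed isoform of subunit 6a, was at 195.2, 219.4, 233.8 and 240.3 CPM in vehicle mice and at 325.0, 321.6, 307.4 and 327.6 in treated mice. The treated values lay close together and far above the vehicle values, with a rise of 0.50 ± 0.09 (edgeR adjusted p = 8.8e-05). Cox7b, Cox5a, Cox7c and Cox7a2 rose by 0.41 ± 0.08, 0.41 ± 0.09, 0.38 ± 0.08 and 0.38 ± 0.09, and Cox8a by 0.24 ± 0.08. Cox4i1, the largest nuclear subunit, did not follow: 772.8 ± 27.6 and 789.8 ± 26.0 CPM overlapped (-0.00 ± 0.08, edgeR adjusted p = 0.989).

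In the ATP synthase of cDC1 8 of 12 genes of its membrane sector and peripheral stalk rose. Of the 5 genes of F1, the catalytic head with its central stalk, 1 rose, Atp5e of the central stalk. Atp5g1, one of several genes for the proton-carrying c subunit, was at 176.0, 160.7, 189.2 and 178.6 CPM in vehicle mice and at 263.7, 283.5, 228.8 and 287.4 in treated mice. It rose by 0.56 ± 0.10 (edgeR adjusted p = 5.3e-05), with treated mouse 3 the lowest of its arm. Atp5j2 (subunit f) was at 244.1, 282.9, 256.1 and 314.0 against 409.0, 427.6, 369.8 and 401.3 and rose by 0.52 ± 0.09 (edgeR adjusted p = 4e-05). Atp5k (subunit e), at 185.6, 225.1, 192.1 and 203.4 against 265.4, 290.3, 262.7 and 300.6, rose by 0.44 ± 0.09 (edgeR adjusted p = 0.000642). Atp5md and Atp5j, further small subunits, rose by 0.42 ± 0.10 each. Atp5a1 and Atp5b, the alpha and beta subunits that form ATP, were at 0.12 ± 0.09 and 0.17 ± 0.09 and did not pass (edgeR adjusted p = 0.391 and 0.201).

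Members that rose in cDC1 had shorter transcripts than the others, with a median of 709 bases for the longest annotated transcript (GENCODE M21, 37 genes) against 1110 for the 39 tested members without a call. Length was not tested as a factor. In cDC2 and macrophages the medians of rising members were 838 and 863 bases, against 891.5 and 875 for those without a call.

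The mt- genes did not rise with the nuclear ones in cDC1. Of 13 tested, 0 rose and 1 fell, mt-Nd1, a core subunit of complex I (-0.27 ± 0.08, edgeR adjusted p = 0.0216), whose arms overlapped and whose call was lost without treated mouse 1 or 3 or vehicle mouse 1. The median log2 difference of the 13 was -0.13. Summed, the nuclear members went from 17300 ± 546 to 20780 ± 779 CPM (SD, n = 4 each), a ratio of 1.20 without overlap. The mt- genes went from 31300 ± 1729 to 30230 ± 2023 and overlapped. Of the 83 cytosolic ribosomal protein genes tested in cDC1, 25 fell and 1, Rps27l, rose, and their sum went from 221500 ± 14770 to 200300 ± 3464 without overlap. Their part in the shares of other genes was not tested.

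Other mitochondrial genes of cDC1 were read from further lists. Over all cDC1 genes 8.81% rose and 9.18% fell, and 17.5% and 15.8% of those with a mean of at least 6 on the log2 CPM scale. Whether a list exceeded these shares was not tested. Assembly factors had 4 rises and 0 falls among 27 tested, with Cox17, the copper chaperone of complex IV, at 171.7 ± 18.3 and 295.3 ± 32.7 CPM (0.75 ± 0.10, edgeR adjusted p = 4.4e-07). Uqcc2, a complex III assembly factor, and Sdhaf2, which helps attach the flavin of complex II, rose by 0.53 ± 0.13 and 0.83 ± 0.23. Of 12 electron carriers and transporters 3 rose and 1 fell. Cycs, cytochrome c, rose by 0.46 ± 0.10, the outer membrane channels Vdac1 and Vdac3 rose by 0.43 ± 0.13 and 0.50 ± 0.13, and Ucp2, an inner membrane carrier of the uncoupling protein family, fell by 0.23 on the log2 scale. Mitochondrial ribosomal proteins had 12 rises and 1 fall of 75, and protein import 3 rises (among them Tomm5 and Timm13) and 1 fall (Timm10b) of 22. The citric acid cycle showed 0 rises and 1 fall of 13, Fh1 (fumarase, -0.50 ± 0.17). Of 10 genes of mitochondrial transcription and biogenesis 0 passed by edgeR, with Tfam at 0.28 ± 0.24, Nrf1 at 0.44 ± 0.25, Gabpa at 0.14 ± 0.23 and Esrra at -0.24 ± 0.21.

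Each vehicle mouse had 50 to 97 cDC1 and each treated mouse 62 to 81, with medians of 17834 to 20444 and 17884 to 19614 UMIs per cell. The same cluster held 243 of 279 vehicle and 259 of 279 treated cells. All 9 macrophage markers were detected in cDC1, with a sum of 267.9 to 387.1 CPM in vehicle and 165.5 to 275.3 in treated mice. The 6 classical monocyte markers summed to 219.9 to 313.3 and 56.3 to 62.4, and the 7 cDC1 markers to 2793 to 3108 and 1974 to 2108. The 3 fibroblast markers were at 0. The part of these differences in the result was not tested. Cells with a UMI of any of 12 cell cycle genes made up 24.3% to 42% of vehicle and 38.7% to 46.9% of treated cDC1 per mouse. Without such cells 16 members rose and 0 fell, with a median of 0.22. The shares of all genes that rose and fell in that run are not given here.

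In ascites macrophages fewer members were called. Of 80 members tested, 18 rose and 1 fell, where 9.96% of 9888 genes rose and 10.6% fell (edgeR, n = 4 each). The median log2 difference was 0.16 over the members and 0.01 over all genes, with 60 of 80 positive. Among genes with a mean of at least 6 on the log2 CPM scale 18 of 73 members rose and 1 fell, against 17% and 16.6%.

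Of the 18 rises in macrophages 7 were of the ATP synthase. Of its membrane sector and peripheral stalk genes 6 of 12 rose, and of the F1 genes Atp5e of the central stalk did (0.33 ± 0.07). Atp5g1 was at 213.5, 252.7, 242.7 and 230.0 CPM in vehicle mice and at 282.7, 422.6, 374.8 and 427.7 in treated mice. It rose by 0.70 ± 0.11 (edgeR adjusted p = 0.000561), although treated mouse 1 stood near the vehicle arm. Atp5md was at 200.1, 218.5, 215.9 and 218.9 against 302.8, 300.4, 269.8 and 304.5, a rise of 0.49 ± 0.08 (edgeR adjusted p = 0.000743). Atp5k and Atp5j2 rose by 0.47 ± 0.08 and 0.40 ± 0.08. Atp5a1 and Atp5b were at -0.08 ± 0.09 and -0.03 ± 0.10, and their arms overlapped.

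Complex I gave 5 rises among 31 accessory and 0 among 7 core genes in macrophages: Ndufb1-ps (0.36 ± 0.07), Ndufa12 (0.42 ± 0.10), Ndufc1 (0.31 ± 0.08), Ndufa3 (0.28 ± 0.09) and Ndufa13 (0.27 ± 0.08). In complex III Uqcrb and Uqcrq rose, by 0.30 ± 0.08 and 0.25 ± 0.08. In complex IV Cox7b, Cox7c, Cox5b and Cox8a rose, by 0.42 ± 0.09, 0.36 ± 0.07, 0.31 ± 0.08 and 0.23 ± 0.07. Cox6a1 at 0.21 ± 0.08, Cox7a2 at 0.27 ± 0.10 and Cox5a at 0.11 ± 0.09 did not pass. Sdha was at -0.32 ± 0.11, with an edgeR adjusted p of 0.0504, and each treated mouse lay below each vehicle mouse.

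Of the mt- genes of macrophages mt-Nd6 rose by 0.59 ± 0.11, without overlap, and mt-Atp6 by 0.23 ± 0.07, with overlap. mt-Nd6 is the one mt- protein gene on the light strand, and it was also at 0.57 ± 0.22 in cDC1, not past the threshold there (edgeR adjusted p = 0.0748). Cox17 rose by 0.77 ± 0.09, Cycs by 0.71 ± 0.16 and Uqcc2 by 0.49 ± 0.09, and Ucp2 fell by 0.53 on the log2 scale. Assembly factors had 7 rises of 41, mitochondrial ribosomal proteins 22 of 78 and protein import genes 4 of 24, each with 0 falls by edgeR. Over all macrophage genes 9.96% rose, and 17% of those with a mean of at least 6 on the log2 CPM scale. Whether a list exceeded these shares was not tested. Of 13 citric acid cycle genes 0 passed. Of 18 genes of transcription and biogenesis, Slirp (0.36 ± 0.10), which protects mitochondrial mRNA, and Polg2 (0.94 ± 0.27), an accessory subunit of the mitochondrial DNA polymerase, rose.

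The macrophage arms held different cells. Clusters 6 and 5 held 435 and 370 of 1088 vehicle cells, while cluster 3 held 421 of 583 treated cells. Vehicle mice had 221 to 320 macrophages with medians of 15852 to 17322 UMIs, and treated mice 82 to 214 with medians of 9092 to 13973. The sum of the 9 macrophage markers was 11510 to 12490 CPM in vehicle and 9544 to 10080 in treated mice. A change within cells and a change of the cells present cannot be told apart here.

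Type 2 conventional dendritic cells (cDC2), which present antigen mainly to CD4 T cells, had 9 rises and 2 falls among 79 members, where 5.2% of 5771 genes rose and 6.5% fell (edgeR, n = 4 each). The median was 0.22 over members and 0.00 over all genes, and 67 of 79 were positive. Among genes with a mean of at least 6 on that scale 9 of 71 members rose and 2 fell, against 7.89% and 11.9%. Atp5g1 was at 167.9, 166.2, 198.5 and 204.3 CPM in vehicle mice and at 269.2, 381.3, 277.0 and 303.4 in treated mice. Its rise was 0.70 ± 0.13 (edgeR adjusted p = 0.000433), with treated mouse 2 the highest. Atp5o, the stalk subunit that links head and membrane sector, rose by 0.53 ± 0.13, Atp5j2 by 0.44 ± 0.12 and Atp5k by 0.42 ± 0.12. These 4 were the ATP synthase genes called, each of the membrane sector or peripheral stalk. Ndufs6 (0.61 ± 0.16), Uqcrq (0.38 ± 0.12) and Cox6b1 (0.34 ± 0.11) rose without overlap, and Uqcr10 and Cox7b rose with overlapping arms. Of 13 mt- genes 0 passed, by edgeR and by DESeq2, and 0 had an unadjusted p under 0.05. Cox17 and Uqcc2 rose by 0.66 ± 0.14 and 0.70 ± 0.16, Vdac3 by 0.55 ± 0.18, and Fh1 fell by 0.78 on the log2 scale.

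The counts in cDC2 rested on few cells, 29 to 59 per vehicle and 24 to 48 per treated mouse. With cells assigned by HTODemux, another hashtag caller, 0 of 78 members passed and the median was 0.19. Leaving out vehicle mouse 1 or 3 gave 3 calls, treated mouse 2 gave 4, and vehicle mouse 2 or treated mouse 4 gave 6. In macrophages HTODemux gave 5 calls, and leaving out vehicle mouse 1 or 2 gave 11 and 12. Shares of all genes called in these runs are not given here.

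**Figure D2:**
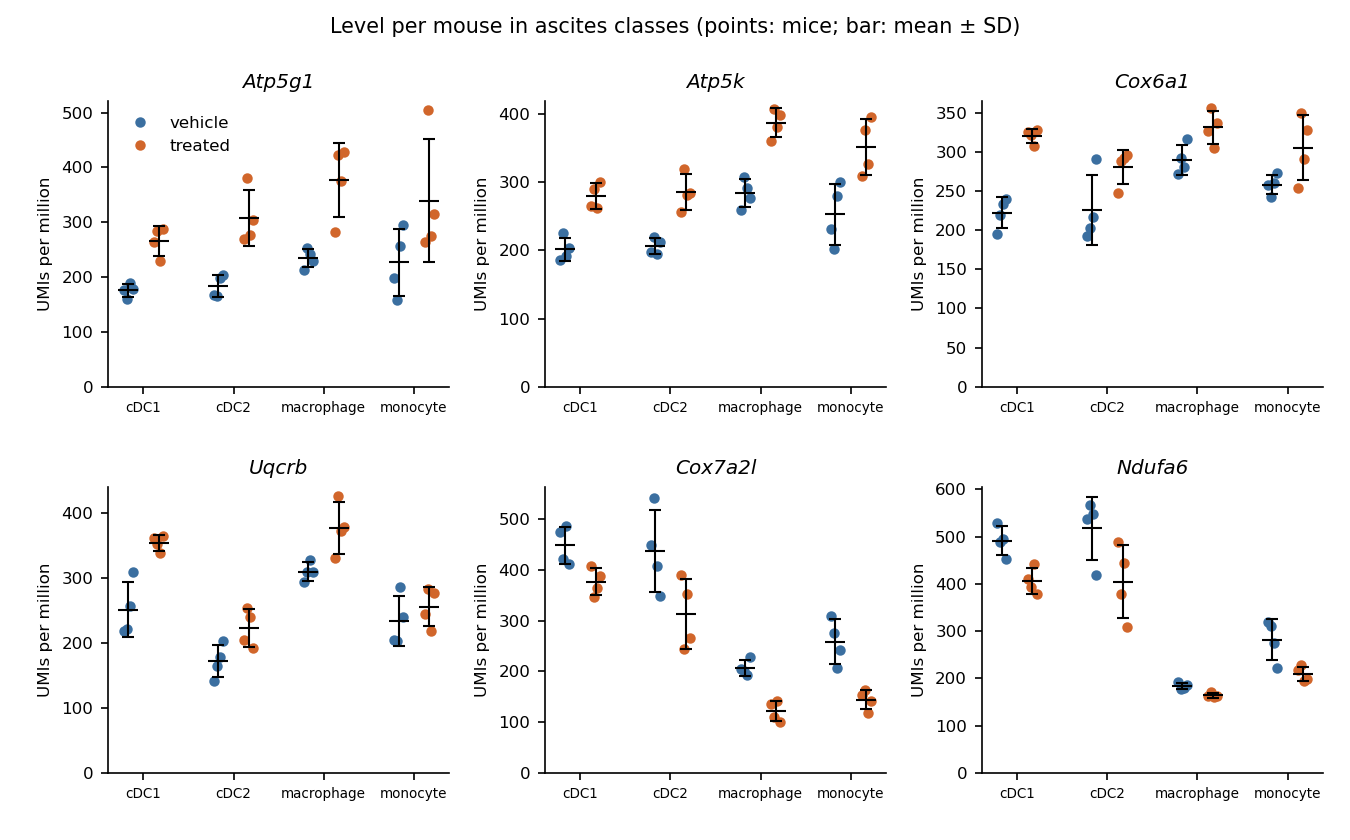
Level in CPM (vertical axis from 0) of 6 genes in 4 ascites classes, 1 point per mouse with mean and SD, vehicle in blue and treated in orange. Atp5g1 and Atp5k stand higher in treated mice of cDC1, cDC2 and macrophages without overlap, and Cox7a2l stands lower, with overlap in cDC2.

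Cox7a2l was the complex IV gene that fell in cDC1, cDC2, macrophages and monocytes. Its product is known as the factor that joins complexes III and IV into supercomplexes, and B6 mice are known to carry a shortened form of it. The gene (ENSMUSG00000024248) spans chr17:83501918-83517330 on the minus strand of GRCm38. In macrophages it was at 204.5, 199.8, 191.9 and 228.3 CPM in vehicle mice and at 135.5, 110.6, 141.7 and 100.7 in treated mice. It fell by 0.72 on the log2 scale (SE 0.12, edgeR adjusted p = 0.000549), and the arms were clearly apart. In classical monocytes it was at 309.4, 275.1, 206.4 and 242.0 against 153.7, 163.5, 118.6 and 141.6, a log2 change of -0.81 ± 0.17 (edgeR adjusted p = 0.00304). The monocyte arms shared cluster 4 (122 of 177 vehicle and 110 of 154 treated cells), while 28 vehicle cells lay in cluster 5 and 38 treated cells in cluster 3, where macrophages of the same arm lay. Within cluster 4 the change of Cox7a2l was -0.68 and still called. In cDC1 it fell from 448.2 ± 37.0 to 376.3 ± 26.4 (-0.29 ± 0.09, edgeR adjusted p = 0.0192), without overlap, and the call was lost without vehicle mouse 1 or 3 or treated mouse 2 or 3. The calls in macrophages and monocytes held with each mouse left out, but with HTODemux no member was called in monocytes. In cDC2 the change was -0.53 ± 0.16 (edgeR adjusted p = 0.0384), and treated mouse 1, at 389.9, lay above vehicle mouse 4, at 349.0. Elsewhere in ascites it did not pass: B cells were at -0.25 ± 0.11, T cells at -0.21 ± 0.15 and migratory dendritic cells at 0.04 ± 0.18.

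Ndufa6, an accessory subunit that binds the acyl carrier protein Ndufab1, was the other member that fell in dendritic cells. The gene spans chr15:82350140-82354322 on the minus strand. It was at 528.1, 488.8, 495.7 and 452.2 CPM in vehicle cDC1 and at 410.7, 393.6, 442.2 and 377.5 in treated cDC1 (-0.31 ± 0.09, edgeR adjusted p = 0.00837). No treated mouse reached a vehicle mouse there. In cDC2 it fell by 0.40 on the log2 scale, with overlapping arms (edgeR adjusted p = 0.0431). The call in cDC1 was lost without treated mouse 2 or vehicle mouse 1. In macrophages and monocytes it was at -0.14 ± 0.08 and -0.41 ± 0.16, not past the threshold.

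Classical monocytes had 2 rises and 1 fall among 77 members, near the background of 3.45% and 2.76% of 4557 genes (edgeR, n = 4 each), and of 4.17% and 4.13% among genes with a mean of at least 6 on the log2 CPM scale. Atp5k was at 231.0, 202.5, 279.4 and 300.4 against 309.8, 376.8, 326.2 and 395.7 CPM and rose by 0.50 ± 0.15 (edgeR adjusted p = 0.0446). Vehicle mouse 4 and treated mouse 1 nearly met, and both rises were lost with any of several mice left out. Ndufa13, which is also known as a partner of STAT3, rose by 0.49 ± 0.14. The fall was that of Cox7a2l. Migratory dendritic cells (3 vehicle and 4 treated mice) had 0 calls among 76 members, with 4.57% of genes up and 4.37% down, and 9 members with an unadjusted p under 0.05. Neutrophils (4 vehicle and 2 treated mice) had 0 calls among 32, with 0.955% up and 0.0868% down and 1 member with an unadjusted p under 0.05. In DESeq2 0 members passed in both classes. For an unadjusted p under 0.05 the shares of all genes in these classes are not given here.

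Ascites B cells had a single call. Of 78 members 0 rose and 1 fell, with 3.49% of 6068 genes up and 4.63% down and a median of -0.05. Cox4i1 was at 570.6, 543.3, 552.4 and 558.3 CPM in vehicle mice and at 449.1, 440.6, 468.9 and 472.1 in treated mice, tight values without overlap. It fell by 0.37 on the log2 scale (SE 0.10, edgeR adjusted p = 0.00702). Of the mt- genes mt-Co3 and mt-Co1, catalytic core subunits of the same complex, fell by 0.28 and 0.13. The arms held partly different B cells: cluster 10 held 606 of 808 vehicle and 371 of 388 treated cells, and cluster 12 held 201 and 11. Within cluster 10 these 3 were not called, with Cox4i1 at -0.22, mt-Co3 at 0.01 and mt-Co1 at 0.02. Without TMM scaling, on library sizes alone, the median of all genes moved from 0.00 to 0.10 and that of the members to 0.05, Cox4i1 was not called (-0.27), and 3 mt- genes rose and 1, mt-Co3, fell. Of 83 cytosolic ribosomal protein genes 41 fell in these cells.

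Ascites T cells had 0 calls among 78 members (0.392% of 5869 genes rose and 0.239% fell, edgeR, n = 4 each), although 71 differences were positive and the median was 0.28. An unadjusted p under 0.05 was found for 20 members, and 0 passed in DESeq2. Ndufa4 was at 146.5, 144.1, 117.5 and 150.8 in vehicle mice and at 297.7, 268.6, 262.2 and 150.2 in treated mice (0.75 ± 0.19, edgeR adjusted p = 0.0598). Treated mouse 4 lay with the vehicle mice, and without it 12 members rose and 0 fell. It was singled out by its value for a member, so that count is no separate support. This mouse held 315 of the 617 treated T cells. Shares over all genes, for that run or for an unadjusted p under 0.05, are not given here. Ndufa3, at 0.63 ± 0.16, did not overlap between arms and had an edgeR adjusted p of 0.0564. CD8 T cells (3 vehicle and 4 treated mice) also had 0 calls, of 69 members (0.0397% up and 0.199% down), with a median of 0.38, 14 unadjusted p under 0.05 and 0 calls in DESeq2. Without treated mouse 4 there were 4 rises, again without a share over all genes beside them. Among non-cycling cells the medians were 0.18 for T cells and 0.06 for the CD8 subset.

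On counts simulated at the size of these comparisons edgeR recovered 38.8% of 67 changes of 1.5-fold in cDC1 and 7.46% of 67 in ascites T cells. In the simulation 7089 of 7289 cDC1 genes and 5669 of 5869 T cell genes were left unchanged. Recovery may differ where the share of changed genes differs. Among genes with a mean of at least 6 on the log2 CPM scale, it recovered 75% of 16 and 14.3% of 21 such changes. Most members tested reached that mean, 73 in cDC1 and 66 in ascites T cells. A count of 0 in T cells therefore leaves room for changes of that size.

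In spleen B cells 3 of 78 members rose and 0 fell (2.25% of 8746 genes up, 2.02% down, edgeR, n = 3 each). Atp5k was at 182.3, 186.4 and 162.2 CPM in vehicle mice and at 230.6, 192.4 and 221.3 in treated mice, a rise of 0.34 ± 0.08 (edgeR adjusted p = 0.00811). Ndufb3 and Ndufa4 rose by 0.33 ± 0.09 and 0.27 ± 0.07. The arms did not overlap for these 3, yet treated mouse 3 came close to the vehicle mice for Atp5k. The mt- genes mt-Nd2, mt-Nd4, mt-Nd4l and mt-Cytb rose by 0.18 to 0.25. With library sizes alone 0 of the 3 nuclear members passed, and without treated mouse 2 none was called. In blood B cells 0 of 78 members passed by edgeR or DESeq2 (0.641% of genes up and 0.401% down), with Atp5k at -0.14 ± 0.09. An unadjusted p under 0.05 was found for 4 members, without a share over all genes beside it. There mt-Co3 rose by 0.14 ± 0.03, a call lost without treated mouse 3 or vehicle mouse 1 or 3.

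Spleen T cells, CD4 T cells and CD8 T cells and blood T cells, CD8 T cells and NK cells had 0 members called by edgeR and by DESeq2. The background was low too. In spleen 0.827% and 1.46% of genes rose and fell in all T cells together, 0.083% each in the CD4 subset, and 0.306% and 0.34% in the CD8 subset. In blood the shares were 0.365% and 0.101% for T cells, 0% and 0.0278% for their CD8 subset, and 0.149% and 0.187% for NK cells. Of the members, 0 to 7 per class had an unadjusted p under 0.05 by edgeR. Shares of all genes at that limit are not given here. The members' medians lay between -0.06 and 0.01.

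The difference between tissues was tested as an interaction with the mouse as a block, for B and T cells. For B cells of spleen against blood 1 of 78 members differed, with 0.386% of genes higher and 0.477% lower in the difference. Atp5k had a treatment effect 0.48 higher in spleen than in blood (SE 0.12, edgeR adjusted p = 0.0262, 6 mice). For ascites against spleen B cells 0 members differed (0.92% and 2.24% of genes), with 8 at an unadjusted p under 0.05. mt-Co3 did differ, by -0.29 (edgeR adjusted p = 0.00042). With library sizes alone neither interaction was called. For T cells 0 members differed between spleen and blood (0.143% and 0.227%) or between ascites and spleen (0.0942% and 0.0418%), with 6 members at an unadjusted p under 0.05 in each. DESeq2 was not run on these interactions. Nor is the share of all genes with an unadjusted p under 0.05 given for them.

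The summed share of the nuclear members gives the level across classes, as a description. In vehicle mice it was highest in blood NK cells at 21560 ± 252 CPM (n = 3) and lowest in neutrophils of ascites at 10580 ± 2347 (n = 4) among classes with at least 2 mice per arm. Ascites monocytes, macrophages, cDC1 and cDC2 stood at 18470 ± 1948, 17740 ± 471, 17300 ± 546 and 17070 ± 769 (n = 4), and these neighbours overlapped. Spleen T and B cells followed at 16810 ± 575 and 15230 ± 354, and blood T and B cells at 14820 ± 373 and 14620 ± 354 (n = 3). Ascites T and B cells were lower, at 11920 ± 1006 and 10800 ± 444 (n = 4). The mt- sums ran otherwise, with spleen, blood and ascites B cells at 66710, 61480 and 58650 and ascites macrophages at 46440. The filter at 10% mitochondrial UMIs bounds them from above. Ascites was in a different library from spleen and blood. Tissue and library therefore cannot be told apart where levels of ascites are set beside those of spleen or blood. Depth differed as well: vehicle B cells had medians of 3860.5 to 4326 UMIs per cell in ascites and 6430 to 6812 in spleen.

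By complex, treated cDC1 exceeded vehicle cDC1 by 1.18-fold for complex I, 1.11 for II, 1.15 for III, 1.20 for IV and 1.24 for V, each without overlap. In cDC2 the sum of all members rose on average from 17070 to 19710 (1.16-fold, no overlap), and complex II overlapped. In macrophages it went from 17740 to 19620 (1.11-fold, no overlap), and complexes II and III overlapped. The sums of monocytes (18470 and 20200) and ascites T cells (11920 and 14170) overlapped, as did those of ascites B cells (10800 and 10820).

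**Figure D3:**
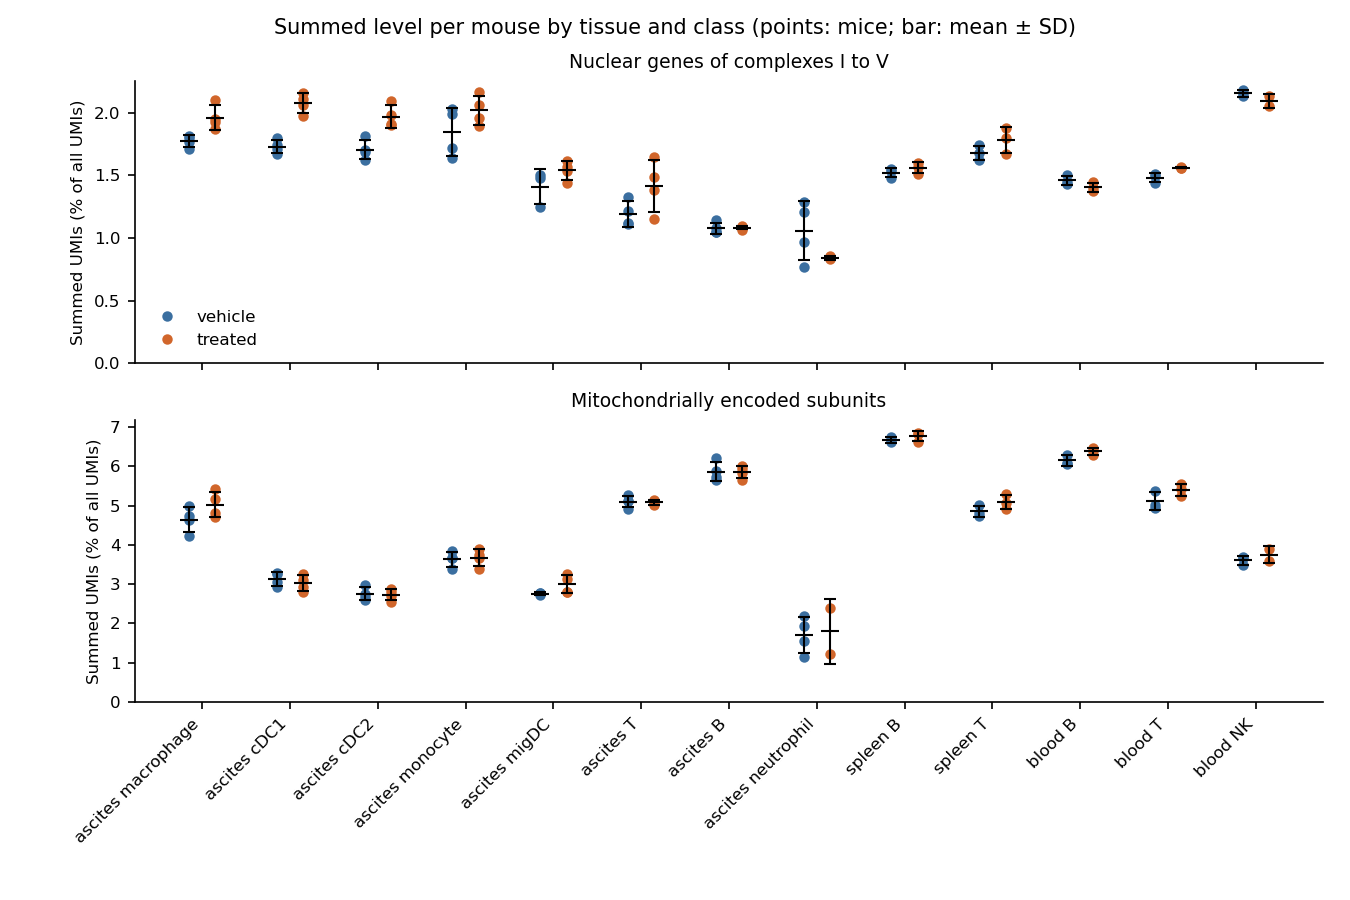
Summed UMIs as a percentage of all UMIs (vertical axes from 0) of the nuclear genes of complexes I to V (top) and of the mt- genes (bottom), by tissue and class, 1 point per mouse with mean and SD. In cDC1, cDC2 and macrophages each treated mouse lies above each vehicle mouse in the top panel, and the arms overlap in the bottom panel.

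Vehicle mice alone showed how far the members differ between cell types. Between macrophages and B cells of the same ascites, 70 of 80 members were higher in macrophages and 3 lower, where 36% of 10659 genes were higher and 32.9% lower (edgeR with the mouse as a block, 4 mice). The members' median difference was 0.99. Complex I had 35 of 38 higher and complex V 16 of 17. Sdhc, a membrane anchor of complex II, went from 23.4 ± 0.97 CPM in B cells to 89.3 ± 6.96 in macrophages (1.99 ± 0.15, edgeR adjusted p = 2.2e-13), while Sdha was at 81.5 ± 5.77 and 74.6 ± 5.20 (-0.02 ± 0.12). The exceptions were Cox7a2l (-0.56 ± 0.10), Uqcrh (-0.45 ± 0.09), the hinge protein of complex III, and Uqcrfs1 (-0.35 ± 0.12). Cox7a1, best known from muscle, was higher in macrophages, at 6.53 ± 1.10 against 0.856 ± 0.743 CPM. The mt- genes went the other way, with 0 of 13 higher and 9 lower. Of 83 cytosolic ribosomal protein genes 74 were lower in macrophages and 4 higher. Depth differed too, with medians of 15852 to 17322 UMIs per cell in vehicle macrophages and 3860.5 to 4326 in vehicle B cells. Their part in the difference of the members was not tested.

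Between spleen and blood the result depended on the scaling. In B cells 36 of 78 members were higher in spleen and 0 lower with TMM (12.8% and 9.96% of 8219 genes, 3 mice), and 11 higher and 4 lower with library sizes alone, where the median of all genes moved from -0.01 to -0.21 and 7.37% of genes were higher and 21.7% lower. Cytosolic ribosomal protein genes were higher in spleen B cells for 80 of 83. Cox5a went from 166.2 ± 6.94 to 219.1 ± 9.29 CPM and Atp5g1 from 161.2 ± 9.71 to 208.5 ± 25.9. In T cells 5 members were higher and 2 lower with TMM (5.42% and 6.29% of 7791 genes), and 27 higher and 1 lower with library sizes alone (10.3% and 3.17%, median of all genes 0.16). Ndufa12 (73.4 ± 8.04 to 116.8 ± 5.85) and Uqcrb (136.8 ± 11.3 to 202.0 ± 24.6) were higher in spleen T cells. Cox7a2l was lower there, 594.6 ± 22.4 in blood and 516.9 ± 11.9 in spleen (-0.36 ± 0.07, edgeR adjusted p = 2e-06). Of the mt- genes, 10 of 13 were higher and 1, mt-Nd6, lower in spleen B cells, and 11 were lower in spleen T cells, with TMM.

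**Figure D4:**
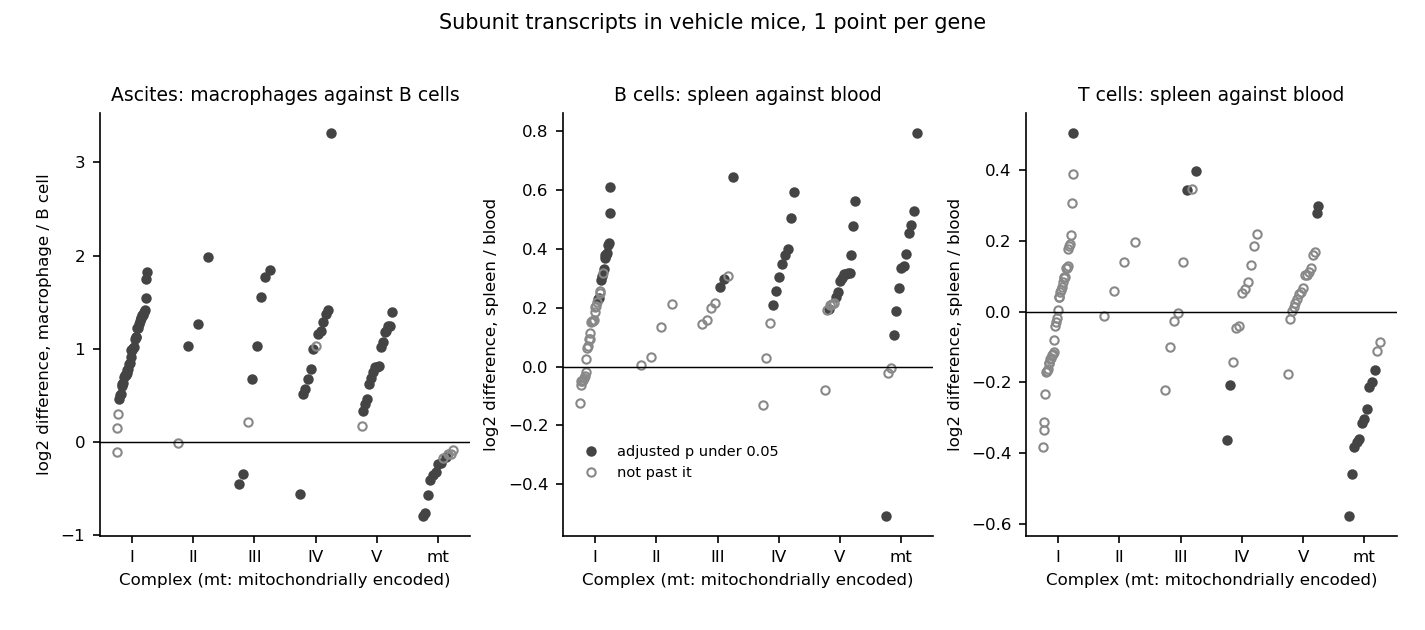
Log2 differences in vehicle mice with TMM scaling, 1 point per gene by complex (mt: mitochondrially encoded), filled where the edgeR adjusted p is under 0.05, for ascites macrophages over B cells and for spleen over blood in B and T cells. In the left panel 70 of 80 nuclear genes are filled above 0 and 9 of 13 mt- genes below it.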

How the data were processed

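Unique molecular identifier counts per gene and cell were deposited as whole numbers by the authors, and hashtag antibody counts with them. The submitters' processing notes name Cell Ranger 6.1.1 and mm10. How reads shared with processed pseudogenes, or on the other strand, were counted is not given in the sources used here.

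Barcodes below 200 genes or 500 UMIs, or above 10% mitochondrial UMIs, were dropped. A cell went to a mouse when 1 hashtag held 80% of at least 20 hashtag UMIs, which also removed doublets between mice. HTODemux (Seurat 5.3.0) was the alternative. Classes were gated on summed marker transcripts, and cells passing several gates were left out. Counts were summed per mouse and class (at least 20 cells per mouse, 2 mice per arm) and tested with edgeR 4.0.16 (TMM, filterByExpr, robust quasi-likelihood test, Benjamini-Hochberg over all genes, threshold 0.05), checked on simulated data. Differences between tissues and between classes had the mouse as a block. Equal mouse numbers in different tissues were taken as the same animal. DESeq2 1.42.0 was an alternative. Clusters came from scanpy 1.11.5 and leidenalg 0.10.2 under Python 3.11.15, and tests ran in R 4.3.3. P-values measure the spread between mice.

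The members and lists were chosen with earlier results of these data known. Named were, per complex and class, up to 5 members past the threshold without overlap by smallest p, a set of subunits always named (such as the Sdh genes and Cox4i1), the mt- genes, and up to 3 genes per pathway list. Other names, such as Ndufa6, Ndufs1, the overlapping calls in cDC2, Rps27l and the genes of the vehicle comparisons, were chosen after their values were seen. Non-cycling cells, the cluster most shared between arms, and library sizes alone were added as alternatives after seeing the data.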

Additional observations from a re-analysis of the deposited data

Results flagged for a closer look

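In 105 groups of 4 mice, 3 had a mouse whose summed level stood apart from the other mice of its arm, where chance flags about 1 in 20. Complex I of ascites B cells was high in treated mouse 1, at 3359 CPM. Complex III of ascites CD8 T cells was high in treated mouse 1, at 1773. Complex I of ascites cDC1 was low in vehicle mouse 1, at 5080.

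The treatment effect differed between tissues for a nuclear member and a mt- gene in B cells, by the test of the difference itself. That of Atp5k was higher in spleen than in blood by 0.478 (edgeR adjusted p = 0.0262), with Atp5k higher in 3 of 3 treated mice of spleen and lower in 3 of 3 of blood. That of mt-Co3 was lower in ascites than in spleen, by -0.293 (edgeR adjusted p = 0.00042). Neither was called with library sizes alone.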

How the results depend on the processing

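Counts of called nuclear members and mt- genes stayed within 1.5 times the main count in 359 of 434 alternative runs and in 208 of 264 runs leaving out 1 mouse. A main count of 0 that stayed 0, as for members in blood T cells with each mouse left out, was taken as unchanged. These totals therefore include runs with no call to lose. Of 1279 alternative values of called genes 193 lost the call and 2 reversed (mt-Co1 to 0.018 and mt-Co3 to 0.01 in ascites B cells, in the most shared cluster). With 1 mouse left out, 188 of 792 values of called genes lost the call and 0 reversed. Causes were not tested. Shares of all genes called in the single runs are not given in this section. Macrophages could not be tested in their most shared cluster, which held 52 vehicle and 70 treated cells. What limits the counts was not separated into depth and spread between mice. Simulated 1.5-fold changes were recovered for 25.4% of 67 changed genes in cDC2 (5771 genes simulated) and 7.46% of 67 in ascites T cells (5869 simulated). Among genes with a mean of at least 6 on the log2 CPM scale these shares were 54.5% of 22 and 14.3% of 21.

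Against main counts of members of 39 in cDC1, 11 in cDC2, 19 in macrophages and 3 in monocytes, HTODemux gave 0 in cDC2, 5 in macrophages and 0 in monocytes. Non-cycling cells gave 16 in cDC1, 23 in cDC2 and 8 in monocytes. The DESeq2 Wald test gave 7 in cDC2 and 1 in monocytes, and library sizes alone 17 in cDC2. In monocytes the 5% mitochondrial limit gave 6, Leiden classes 13 and the shared cluster 9. In migratory dendritic cells (main 0) limits of 5% and 20%, Leiden classes, library sizes alone and the shared cluster each gave 1. In ascites B cells (main 1) the 5% limit, library sizes alone and the shared cluster gave 0, Leiden classes 4 and no filter on low counts 2. In ascites T cells (main 0) no filter gave 2 and library sizes alone 1. In spleen B cells (main 3) the 5% limit gave 0, the 20% limit 10, Leiden classes 5, no filter 7, library sizes alone 0, non-cycling cells 5 and the shared cluster 1. In spleen T cells (main 0) Leiden classes and library sizes alone gave 1. The interaction of ascites and spleen B cells (main 0) gave 1 without the filter, and that of spleen and blood (main 1) 0 with library sizes alone. Spleen against blood gave 23 with HTODemux and 15 with library sizes alone in B cells (main 36), and 28 with library sizes alone in T cells (main 7).

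For mt- genes, ascites B cells (main 2) gave 1 with HTODemux, limits of 5% and 20%, DESeq2 size factors and the Wald test, 4 with library sizes alone and 5 in the shared cluster. In cDC1 (main 1) HTODemux gave 2, and the 5% limit, Leiden classes and the Wald test 0. Non-cycling cDC2 gave 1 and Leiden monocytes 1 (main 0 in both). Macrophages (main 2) gave 1 at 5% and in non-cycling cells and 5 at 20%. Blood B cells (main 1) gave 2 with the Wald test and 0 with limits of 5% and 20%, no filter, non-cycling cells and the shared cluster. Blood CD8 T cells (main 0) gave 5 with library sizes alone. Spleen B cells (main 4) gave 1 with HTODemux and 0 at 5% and in the shared cluster. Spleen T cells (main 0) gave 1 at 5% and 2 with library sizes alone.

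With each mouse left out in turn, member counts ranged from 27 to 42 in cDC1, 3 to 16 in cDC2, 11 to 23 in macrophages, 1 to 4 in monocytes (1 without treated mouse 2 or 4 or vehicle mouse 1 or 2), 0 to 1 in migratory dendritic cells, 1 to 2 in ascites B cells, 0 to 12 in ascites T cells and 0 to 4 in ascites CD8 T cells. They ranged from 0 to 5 in spleen B cells, 0 to 1 in spleen T and CD8 T cells, 0 to 1 in the interactions of spleen and blood B cells and of ascites and spleen T cells, 16 to 25 and 2 to 6 in spleen against blood B and T cells (16 without vehicle mouse 1, 2 without vehicle mouse 2). For mt- genes they ranged from 1 to 4 in ascites B cells, 0 to 3 in cDC1, 0 to 1 in cDC2, 1 to 3 in macrophages, 0 to 3 in blood B cells, 1 to 5 in spleen B cells and 0 to 1 in spleen CD8 T cells.

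Mouse numbers were not taken to pair the arms, since they name different mice and, in no class with 3 or more numbers in both arms, did every number correlate above 0.1. Deviations of same-numbered mice correlated at 0.03, 0.01, -0.02 and 0.12 in cDC1 and from -0.27 to 0.27 in macrophages. In ascites T cells they correlated at 0.11, 0.00, 0.21 and 0.48, in ascites CD8 T cells at 0.13, 0.06 and 0.16, and in spleen CD4 T cells at 0.26 and -0.00. With the replicate block 38 members were called in cDC1, 10 in cDC2, 16 in macrophages, 1 each in monocytes, migratory dendritic cells, neutrophils, ascites CD8 T cells and spleen B cells, and 2 in ascites T cells. The block gave 1 mt- gene in macrophages, 0 in blood B cells and 1 in spleen T cells.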
